A study of Mus musculus with 6 samples.

Results

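The genes described here are 10 genes of eicosanoid synthesis and sensing, measured in lineage-depleted mouse bone marrow that was labelled Stag2KO or Stag2WT. They were found by symbol among the 33924 genes of the count table: the lipoxygenases Alox5, Alox12, Alox12e and Alox15, the leukotriene genes Alox5ap, Lta4h and Ltc4s, the leukotriene receptor gene Ltb4r1, and the cyclooxygenase genes Ptgs1 and Ptgs2. All 10 were listed, and 9 of them held enough reads to be tested, Ptgs2 being the exception. The set was put together with the Stag2KO against Stag2WT results of these same libraries known. The members' levels, fold changes and calls in that comparison are therefore given as a description of the libraries, without p-values.

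RNA sequencing covered 6 libraries, 3 from Stag2KO and 3 from Stag2WT marrow, after cells bearing markers of mature blood lineages had been taken out with magnetic beads. Stag2 encodes one of the alternative STAG subunits of cohesin, a ring-shaped complex known for pairing sister chromatids and for folding chromatin into loops. Beside the genotype and the tissue, the labels give each library a short code that is not explained, and replicates 1 and 2 of Stag2KO share its letters RM. No source used here gives the allele, any Cre driver, the strain or the age, or says whether a group's libraries are from different animals. Libraries held 29435651 to 37722325 reads assigned to genes, and CPM below are these counts scaled to a common library size (TMM). In such a mixture of cells, fewer cells of a type and less RNA per cell cannot be told apart. Stag2 itself stood at 169, 186 and 183 CPM in Stag2KO libraries, against 338, 328 and 324 CPM in Stag2WT libraries, which left 54.4% of the Stag2WT level (log2 fold change -0.88, SE 0.06, and, in edgeR's quasi-likelihood fit, adjusted p = 0.000278). Progenitor marker genes were present in both groups, with summed levels over 8 genes of 792 to 914 CPM in Stag2KO and 659 to 795 CPM in Stag2WT libraries. Of these 8 genes 3 were called higher in Stag2KO, 0 lower and 5 not called. Reads outside annotated genes were 11.7% ± 0.984 of Stag2KO and 9.24% ± 0.725 of Stag2WT libraries (SD, n = 3 each), and the groups did not overlap. With that share as a covariate, Ltb4r1 was called (log2 fold change 1.46, SE 0.21). The calls of Alox12e, Alox15, Alox5 and Lta4h were lost, at log2 fold changes that were larger than without the covariate, as were their standard errors: 3.12 (SE 0.43) for Alox12e, 1.68 (SE 0.45) for Alox15, 1.10 (SE 0.21) for Alox5 and 0.63 (SE 0.18) for Lta4h.

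Eicosanoids are short-lived lipid signals made from arachidonic acid, which phospholipases free from membranes. In one branch the enzyme encoded by Alox5, helped by the membrane protein of Alox5ap, makes leukotriene A4, which the product of Lta4h turns into the neutrophil attractant leukotriene B4 and that of Ltc4s into cysteinyl leukotrienes. Other lipoxygenases make hydroxylated fatty acids, and the cyclooxygenases start the path to prostaglandins and thromboxane. In blood, these enzymes are best known from granulocytes, mast cells, macrophages and platelets.

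Of the 9 tested members, 5 were called higher in Stag2KO at an adjusted p under 0.05, 0 lower and 4 were not called, where 21.2% of all 15708 tested genes were called, 10.7% higher and 10.5% lower. The calls fell on Alox12e, Alox15, Alox5, Ltb4r1 and Lta4h. Their log2 fold changes were 2.50 for Alox12e, 1.02 for Ltb4r1, 1.0 for Alox15, 0.76 for Alox5 and 0.38 for Lta4h. The median log2 fold change of the tested members was 0.38, beside 0.01 over all tested genes. In 6 of the tested members the 3 Stag2KO libraries did not overlap the 3 Stag2WT libraries, always with Stag2KO above, as was so for 43.5% of all tested genes in either direction and 22.2% with Stag2KO above.

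**Figure D1:**
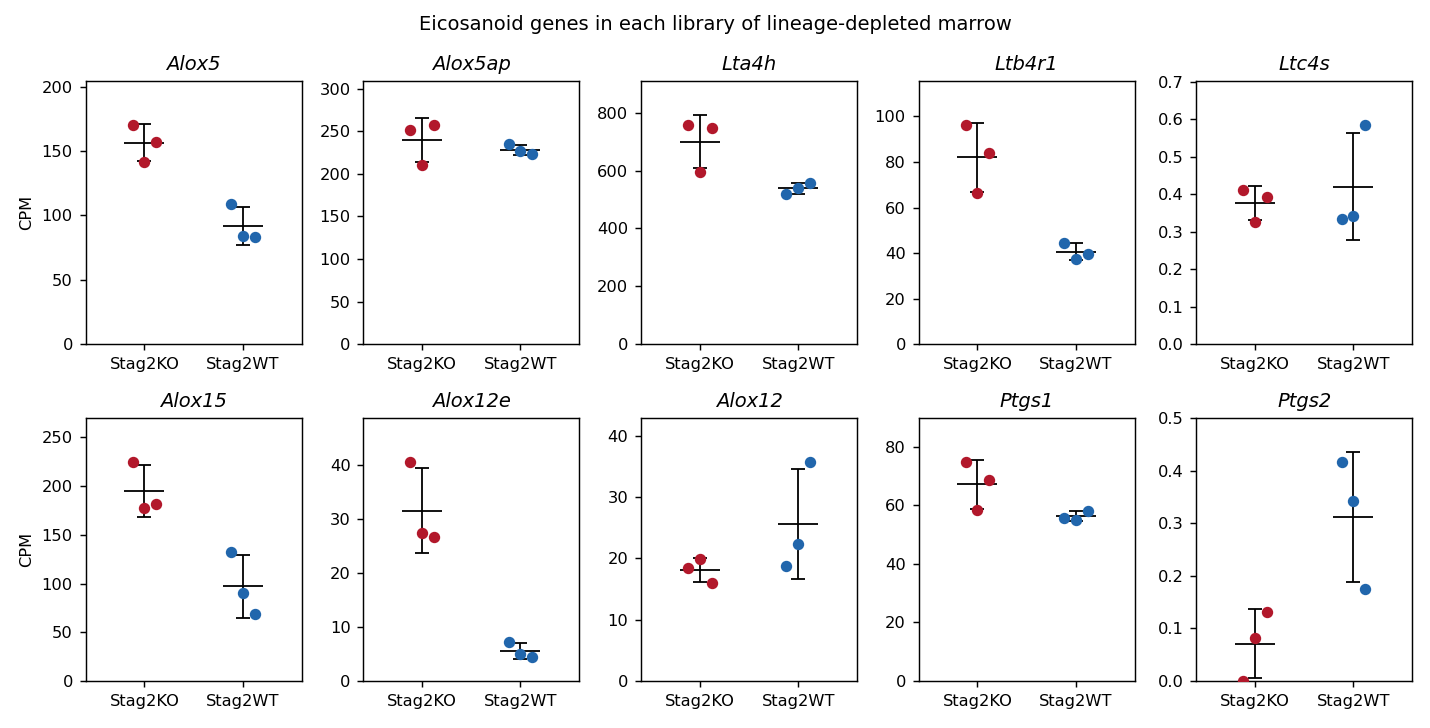
Level of each of the 10 genes in every library, in CPM on a linear axis from 0; red points are Stag2KO and blue points Stag2WT libraries, and bars give the mean and SD of 3 libraries. Alox5, Lta4h, Ltb4r1, Alox15, Alox12e and Ptgs1 lie apart in the 2 groups with Stag2KO above, Ptgs2 lies apart with Stag2KO below at a few reads, and Alox5ap, Ltc4s and Alox12 overlap.

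The start regions are shown for those called genes that the promoter table holds. RefSeq's promoter table (build GRCm38.p6) held 8 of the 10 members, Alox5ap and Alox15 not among them. Printed are the 250 bases before the annotated start, read 5′ to 3′ on the gene's strand, with CG pairs in capitals: chr11:70322531-70322780 on the minus strand for Alox12e, chr6:116461179-116461428 on the minus strand for Alox5, chr14:55765712-55765961 on the plus strand for Ltb4r1 and chr10:93453146-93453395 on the plus strand for Lta4h.
Alox12e: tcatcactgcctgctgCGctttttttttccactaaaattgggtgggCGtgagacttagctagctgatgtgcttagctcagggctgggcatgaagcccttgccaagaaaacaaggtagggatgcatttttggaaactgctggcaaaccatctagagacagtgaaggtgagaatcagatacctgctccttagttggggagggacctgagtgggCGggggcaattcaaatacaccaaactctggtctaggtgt
Alox5: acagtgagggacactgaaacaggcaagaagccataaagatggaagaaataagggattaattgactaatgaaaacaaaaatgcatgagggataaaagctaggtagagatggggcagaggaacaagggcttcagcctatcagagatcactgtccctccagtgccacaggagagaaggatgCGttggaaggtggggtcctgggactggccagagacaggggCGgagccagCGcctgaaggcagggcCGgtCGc
Ltb4r1: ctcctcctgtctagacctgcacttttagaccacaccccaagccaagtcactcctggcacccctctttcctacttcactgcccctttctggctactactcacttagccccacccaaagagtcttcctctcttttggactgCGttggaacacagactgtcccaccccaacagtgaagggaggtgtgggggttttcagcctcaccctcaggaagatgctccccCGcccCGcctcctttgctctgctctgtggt
Lta4h: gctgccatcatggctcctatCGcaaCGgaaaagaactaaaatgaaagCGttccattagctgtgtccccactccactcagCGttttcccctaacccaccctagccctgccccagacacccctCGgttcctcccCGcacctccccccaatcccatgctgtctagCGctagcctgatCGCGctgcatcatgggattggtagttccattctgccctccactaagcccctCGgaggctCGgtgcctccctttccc
The stretches before Alox12e, Alox5 and Ltb4r1 held 3, 5 and 3 CG pairs, and that before Lta4h held 11. Over the 32851 windows of the table the median was 6 CG pairs, with quartiles at 2 and 16. Motifs of 5 kinds of factor were looked for by their letters on both strands of the members' windows, which run on 50 bases past the start. The GATA factor letters AGATAA were in 0 of the 8 windows and in 11.2% of all windows. PU.1's letters AGGAAGT were in 3 of the 8, against 9.35% of all windows. Their matches begin 117 bases before the start of Ltc4s, 23 bases before that of Ptgs1 and at the start of Ltb4r1. TTGCGCAA, bound by C/EBP factors, was in 1 of the 8, the Ptgs2 window, and in 0.183% of all. AP-1's TGACTCA and a full-length NF-kB motif were in 0 of the 8, against 5.2% and 0.155% of all. No matches overlapped each other, and the absence of these letters from a window says nothing of the factors.

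The leukotriene branch begins with Alox5, the arachidonate 5-lipoxygenase gene. Alox5 held 170.4, 142 and 157 CPM in Stag2KO libraries, against 109, 83.8 and 83.3 CPM in Stag2WT libraries. Every Stag2KO library was above every Stag2WT library, and the log2 fold change was 0.76 (SE 0.12). Leaving out any 1 library gave 0.70 to 0.90, with the call made in 6 of 6 such fits. Its partner Alox5ap, which encodes the protein that presents arachidonic acid to the enzyme, did not follow. Alox5ap held 251, 209.9 and 257 CPM in Stag2KO libraries, against 235, 227 and 223 CPM in Stag2WT libraries. One Stag2KO library lay below all Stag2WT libraries and the other two above, and the log2 fold change of 0.07 (SE 0.08) was not called. In GENCODE an antisense gene, Gm19719, overlaps Alox5ap, another, Gm26542, overlaps Ltc4s, and Gm43621 lies on the strand opposite Ptgs1. The rRNA gene n-R5s180 also lies opposite Alox5ap and, unlike those genes, is listed in the count table. Only gene spans were compared and the strand setting is not known, so whether these pairs share reads cannot be told here.

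Lta4h, the leukotriene A4 hydrolase gene, had more reads than any other member, with 18622 to 28499 per library. It held 758, 594 and 746 CPM in Stag2KO libraries, against 518, 540.5 and 557 CPM in Stag2WT libraries. The groups did not overlap, but Stag2KO replicate 2 stood close to the Stag2WT values (log2 fold change 0.38, SE 0.10). The call was made without Stag2KO replicate 2 (0.48) and lost on leaving out Stag2KO replicate 1 (0.32) or 3 (0.33), or Stag2WT replicate 1 (0.35), 2 (0.38) or 3 (0.40).

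Ltc4s, the leukotriene C4 synthase gene, was close to the limit of detection. It held 12, 12 and 15 reads in Stag2KO libraries, against 12, 12 and 20 reads in Stag2WT libraries. The groups overlapped, and the log2 fold change was -0.16 (SE 0.34), or 0.15 without Stag2WT replicate 3. Of the 50-base stretches in its annotated transcripts, 175 of 1148 also occur, on either strand, in transcripts of another gene. An antisense gene such as Gm26542, which the count table does not list, counts as another gene here. Whether reads of Ltc4s were lost to the counting thus cannot be told. Depth does not allow a change of moderate size to be seen at these counts.

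Ltb4r1 encodes the high-affinity receptor for leukotriene B4, through which granulocytes follow that lipid. It held 96.3, 66.3 and 83.8 CPM in Stag2KO libraries, against 44.6, 37.3 and 39.6 CPM in Stag2WT libraries. The lowest Stag2KO library was well above the highest Stag2WT library, and the mean in Stag2KO was 2.03 times that in Stag2WT (log2 fold change 1.02, SE 0.14). All 6 fits that left out 1 library made the call, with values from 0.89 to 1.15. Ltb4r2, the neighbouring gene of the low-affinity receptor, held 0.635 ± 0.141 CPM in Stag2KO and 0.36 ± 0.151 CPM in Stag2WT libraries (SD, n = 3 each) and was not called (log2 fold change 0.82, adjusted p = 0.15 by edgeR).

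Among the other lipoxygenases, Alox15, the mouse 12/15-lipoxygenase gene known from eosinophils and resident macrophages, was the most abundant by reads. Alox15 held 225, 178 and 182 CPM in Stag2KO libraries, against 133, 90.4 and 68.5 CPM in Stag2WT libraries. The groups did not overlap, and the Stag2WT libraries spread over a 1.93-fold range (log2 fold change 1.0, SE 0.25). The call was made without Stag2WT replicate 1 (1.29) or 3 (0.80) and lost on leaving out Stag2KO replicate 1 (0.89), 2 (1.07) or 3 (1.05), or Stag2WT replicate 2 (0.96), and lost as well without the filter on low counts.

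Alox12e, the epidermal-type 12-lipoxygenase gene, had the largest fold change of the 10. It held 40.5, 27.3 and 26.6 CPM in Stag2KO libraries, against 7.23, 5.02 and 4.36 CPM in Stag2WT libraries. Stag2KO replicate 1 was the highest and Stag2WT replicate 3 the lowest, and the groups were far apart, at a ratio of means of 5.69 (log2 fold change 2.50, SE 0.24). Without any 1 library the value ran from 2.28 to 2.74, called in 6 of 6 fits. These reads are not shared with the gene's relatives at this length: 0 of 2920 of its 50-base transcript stretches occur in another gene, 0 of 2403 for Alox15 and 15 of 4036 for Alox12.

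Alox12, the platelet-type lipoxygenase gene, behaved otherwise. It held 18.4, 19.9 and 16.1 CPM in Stag2KO libraries, against 18.7, 22.4 and 35.8 CPM in Stag2WT libraries. Stag2WT replicate 3 stood alone above the other libraries, which overlapped, and the log2 fold change of -0.50 (SE 0.24) was not called. Without that library it was -0.18, and with the share of reads outside genes as a covariate it was -1.23, not called either. Megakaryocyte and platelet markers, summed over 12 genes, stood at 416 to 540.5 CPM in Stag2KO and 348 to 441 CPM in Stag2WT libraries, with Stag2WT replicate 3 the highest of its group. Of these 12 markers 3 were called higher, 0 lower and 9 not called, and their part in the Alox12 values was not tested.

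Alox12, Alox12e and Alox15 stand next to one another on chromosome 11 in the RefSeq gene order. On the outer side of Alox12, Rnasek held 51.3 CPM in Stag2KO and 49.98 CPM in Stag2WT libraries and was not called (log2 fold change 0.04, adjusted p = 0.747 by edgeR). Beyond Alox15 came the pseudogene Gm12312, which was higher in Stag2KO at a low level (1.10, SE 0.31, adjusted p = 0.0386), and then Pelp1, a nuclear receptor coregulator gene, which was not called (0.02, adjusted p = 0.831). The called values at this place were thus those of Alox12e, Alox15 and Gm12312, flanked by genes that were not called. Elsewhere, some genes directly next to a member were called too. March8, beside Alox5, was lower (log2 fold change -0.54, adjusted p = 0.0259 by edgeR). Adcy4, beside Ltb4r1, was higher (0.77, adjusted p = 0.0407). So were Mgat4b (0.20, adjusted p = 0.0448) and Maml1 (0.28, adjusted p = 0.0376), on either side of Ltc4s. Tested direct neighbours of Alox5ap, Lta4h and Ptgs1 were not called.

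Cyclooxygenase genes differed less. Ptgs1, the constitutive cyclooxygenase gene, held 75.0, 58.3 and 68.6 CPM in Stag2KO libraries, against 55.8, 55.0 and 58.1 CPM in Stag2WT libraries. The groups came within 1 CPM of each other without overlapping, and the log2 fold change of 0.26 (SE 0.09) was not called, although it was called without Stag2KO replicate 2 (0.35). The inducible Ptgs2 was almost silent, with 0, 3 and 5 reads in Stag2KO libraries, against 15, 12 and 6 reads in Stag2WT libraries. The groups were 1 read short of touching, with 8 reads in all in Stag2KO and 33 in Stag2WT libraries, and the gene was too low to be tested.

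**Figure D2:**
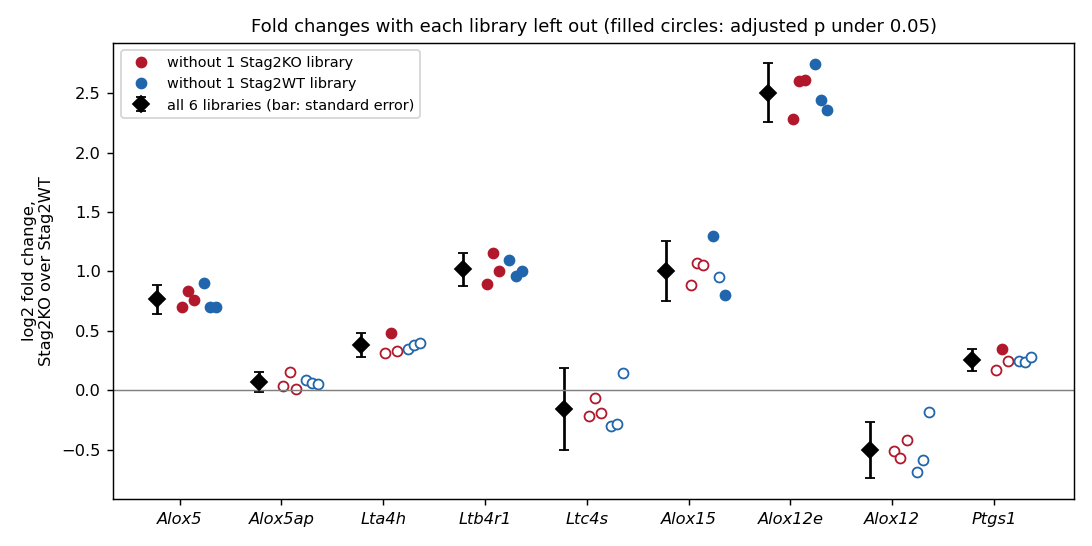
log2 fold change (Stag2KO over Stag2WT) of the 9 tested members with all 6 libraries (diamonds, bars are standard errors) and with each library left out in turn (red, a Stag2KO library left out; blue, a Stag2WT library), filled where the adjusted p was under 0.05. Alox12e, Ltb4r1 and Alox5 are filled in 6 of 6 fits, Alox15 in 2, Lta4h in 1 and Ptgs1 in 1.

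Levels can be set beside each other per kilobase of exon (lengths from GENCODE M21, which is not the annotation used for counting). On this scale, in Stag2KO libraries, mean levels in CPM per kilobase were 169 for Alox5ap, 115 for Lta4h, 79.4 for Alox15, 58.9 for Ltb4r1, 38.1 for Alox5, 17.3 for Ptgs1, 11.1 for Alox12e, 4.44 for Alox12, 0.372 for Ltc4s and 0.0155 for Ptgs2. In Stag2WT libraries they were 161 for Alox5ap, 88.2 for Lta4h, 39.6 for Alox15, 29.1 for Ltb4r1, 22.4 for Alox5, 14.5 for Ptgs1, 6.28 for Alox12, 1.96 for Alox12e, 0.415 for Ltc4s and 0.068 for Ptgs2. The order of the genes was thus the same in both groups but for Alox12e and Alox12, which changed places. In each Stag2KO library Alox12e (9.4 to 14.3) was above Alox12 (3.93 to 4.87), and in each Stag2WT library Alox12e (1.54 to 2.56) was below Alox12 (4.58 to 8.77). Only Alox15 and Ltb4r1 in Stag2WT overlapped as neighbours in this order, with Alox15 at 27.9 to 54.0 and Ltb4r1 at 26.8 to 32.0 CPM per kilobase over libraries. Ltb4r1 and Alox5 in Stag2WT barely missed each other, Alox5 lying at 20.3 to 26.5.

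Alox5 and Alox15 together took most of the reads of the 7 mouse lipoxygenase genes in each library. Alox5 made up 39.1% ± 1.89 of these reads in Stag2KO and 40.5% ± 1.27 in Stag2WT libraries (SD, n = 3 each), a difference within the spread. Alox12e took 7.78% ± 1.02 in Stag2KO and 2.41% ± 0.214 in Stag2WT libraries, and Alox12 took 4.56% ± 0.75 in Stag2KO and 11.8% ± 5.71 in Stag2WT libraries. Shares of Alox15 overlapped, at 47.6% to 49.5% in Stag2KO and 34.5% to 48.1% in Stag2WT libraries.

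**Figure D3:**
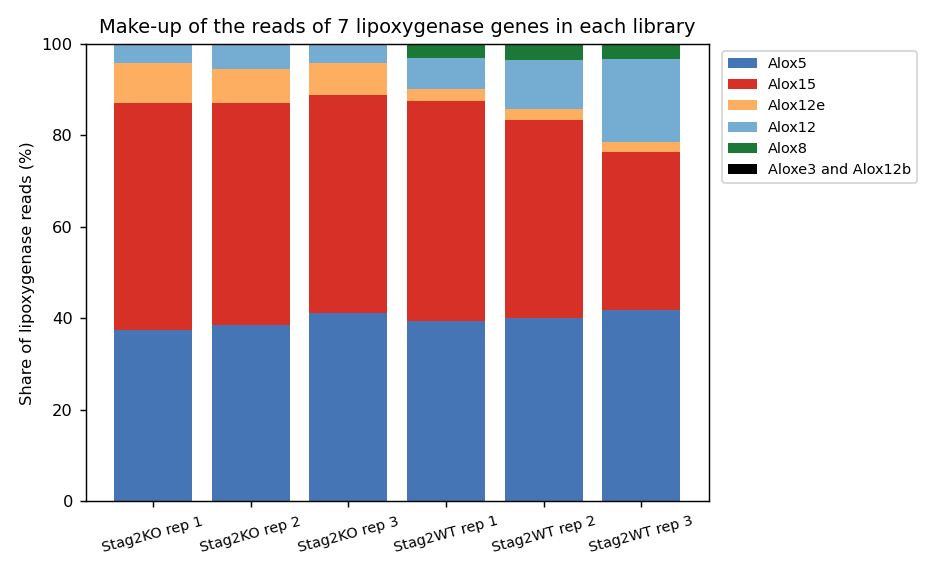
Share of each lipoxygenase gene among the reads of all 7 lipoxygenase genes, in percent, one bar per library with Stag2KO at the left. Alox12e (light orange) takes 6.96% to 8.92% in Stag2KO and 2.19% to 2.62% in Stag2WT libraries, and the Alox8 band (green) is visible in Stag2WT bars alone.

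Both remaining lipoxygenase genes that could be tested were lower in Stag2KO. Alox8, which encodes a lipoxygenase best known from mouse skin, held 2, 12 and 2 reads in Stag2KO libraries, against 275, 238 and 215 reads in Stag2WT libraries. It was nearly absent from every Stag2KO library, with 0.149 ± 0.154 CPM in Stag2KO libraries and 6.91 ± 0.687 CPM in Stag2WT libraries (SD, n = 3 each; log2 fold change -5.47, SE 0.46, adjusted p = 0.000653 by edgeR). Leaving out 1 library gave values between -6.77, without Stag2KO replicate 2, and -5.03. Aloxe3, an epidermal lipoxygenase gene, was also lower, at under 1 CPM (0.0829 ± 0.051 CPM in Stag2KO libraries, 0.473 ± 0.149 CPM in Stag2WT libraries; log2 fold change -2.42 with adjusted p = 0.0135 by edgeR), and Alox12b, not tested, held 1, 1 and 0 reads in Stag2KO and 0 reads in every Stag2WT library. Aloxe3, Alox12b and Alox8 also lie next to one another on chromosome 11, apart from the Alox12 to Alox15 group. The other members lie elsewhere: Alox5 on chromosome 6, Alox5ap on 5, Lta4h on 10, Ltb4r1 on 14, Ptgs1 on 2, Ptgs2 on 1 and Ltc4s at another place on 11.

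By a measure of likeness over the 6 libraries, the genes closest to Alox12e were Ear6, Ear2, Serpinb2, Chit1 and Epx. The measure is the root mean square difference in log2 CPM after each gene is centred on its own mean. It was computed against 9847 tested genes of at least 5 mean CPM. Gene models named by number or clone, antibody, T cell, olfactory and vomeronasal receptor genes, and sex-linked genes were left out beforehand. The measure came to 0.153, 0.192, 0.193, 0.256 and 0.422 for the 5 genes. Ear6 and Ear2 are eosinophil ribonuclease genes whose reads may be split among near-identical copies, and Epx encodes eosinophil peroxidase. Serpinb2 encodes a plasminogen activator inhibitor and Chit1 a chitinase. Because the groups are far apart in all of them, the likeness includes the difference that put Alox12e among the members.

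Eosinophil markers were mostly higher in Stag2KO as well. That list itself holds Ear6, Ear2 and Epx, so it is not independent of the likeness result. Of 9 such markers 7 were called higher, 0 lower and 2 not called. Their summed level was 3831 to 5906 CPM in Stag2KO and 1159 to 1741 CPM in Stag2WT libraries, and none was at 0. Ear1, Ear2 and Ear6, as well as Siglec5 (now Siglecf), were among those called, and Prg3 and Ccr3 were the uncalled ones. Prg2, the major basic protein gene and the most abundant of the list, averaged 2076 CPM in Stag2KO and 943 CPM in Stag2WT libraries. Within each group the same library was the highest for Alox12e, Alox15, Alox5 and Ltb4r1 as for the marker sum, namely Stag2KO replicate 1 and Stag2WT replicate 1. Lta4h did not share this, Stag2WT replicate 1 being its lowest library. Stag2WT replicate 3 was the lowest of its group for the marker sum (1159 CPM), for Alox12e and for Alox15. This order was not particular to eosinophil markers. The late neutrophil and B cell sums given below were likewise highest in replicate 1 of each group and, within Stag2WT, lowest in replicate 3. Markers of early neutrophil precursors were also higher, in 5 of 6 genes with 1 not called, at a summed 13035 to 15917 CPM in Stag2KO and 8876 to 10872 CPM in Stag2WT libraries. Late neutrophil markers were called in 0 of 10 genes by edgeR (5917 to 10129 CPM in Stag2KO and 5746 to 9180 CPM in Stag2WT libraries). Monocyte and macrophage markers were lower in 11 of 13 genes with 2 not called, at 1242 to 1249.7 CPM in Stag2KO and 2062.5 to 2261 CPM in Stag2WT libraries. Basophil and mast cell markers were lower in 3 of 7 tested genes and higher in 1. That list summed to 1743 to 1848 CPM in Stag2KO and 2501 to 2599.9 CPM in Stag2WT libraries. The row Mrgprx2, also on it, was at 0 in every library and says nothing of mast cells here. Markers of B cells were lower in 8 of 8 genes (89.1 to 102 CPM summed in Stag2KO, 215 to 329 CPM in Stag2WT libraries) and stromal markers in 6 of 8 (52.5 to 99.0 CPM in Stag2KO, 181 to 191 CPM in Stag2WT libraries). T cell markers were lower in 3 of 6 genes and erythroid markers in 3 of 8, with summed levels that overlapped between the groups. Endothelial markers were higher in 4 of 7 genes and lower in 1. The part of these cell types in the members' values was not tested.

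**Figure D4:**
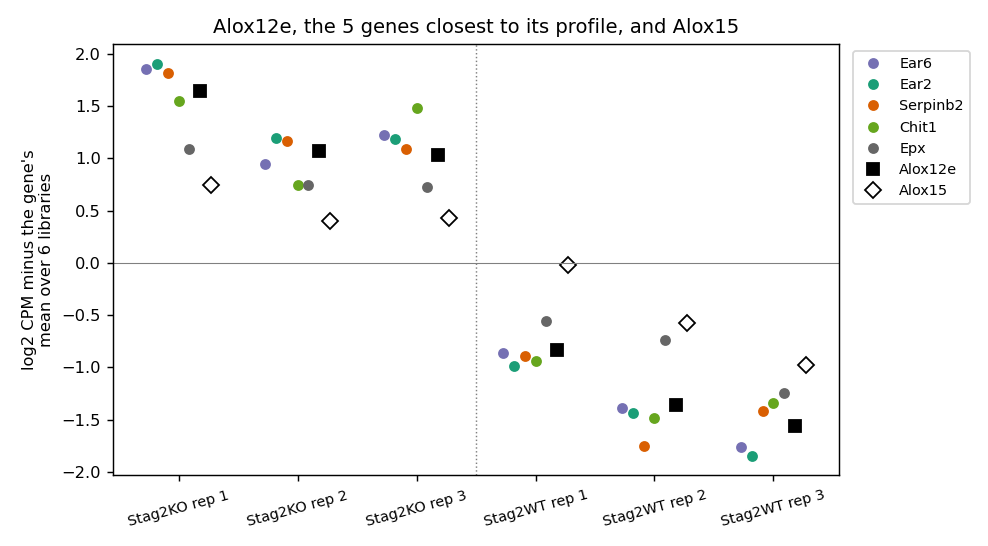
log2 CPM of each gene minus its own mean over the 6 libraries, for Alox12e (black squares), the 5 genes with the most similar values among those compared and Alox15 (open diamonds), with Stag2KO libraries left of the dotted line. All 7 genes are above their mean in each Stag2KO library and below it in each Stag2WT library, and Stag2KO replicate 1 is the highest library for each.

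The pathway around the members was read from 74 further genes grouped by role. Of 63 tested, 13 were called higher, 17 lower and 33 not called, a share of 47.6% beside 21.2% of all tested genes. Their median log2 fold change was -0.08. Because these gene lists were chosen with earlier results of these data known, the share called is given as a description only. In what follows on these genes, a value in brackets after a library left out is the adjusted p without that library. With the share of reads outside genes as a covariate, Alox8 was the only gene named below whose call was made (-6.48), and values of called genes that moved by over 1.5 times are given beside the gene.

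Of 15 tested genes of phospholipases and arachidonate handling, 5 were higher, 0 lower and 10 not called, with a median log2 fold change of -0.05. Among these 5, Pla2g6 was called in 0 and Mboat7 in 2 of the 6 fits without 1 library, while Pla2g12a, not called with all libraries (log2 fold change -0.48, adjusted p = 0.0578 by edgeR), was called lower in 1 of them. Pla2g6, Mboat7 and Pla2g12a were picked after their values were seen. Pla2g4a, the cytosolic phospholipase gene that frees arachidonic acid for this pathway, rose to 64.4 ± 2.06 CPM in Stag2KO, against 44.3 ± 4.56 CPM in Stag2WT libraries (log2 fold change 0.54, SE 0.08, adjusted p = 0.00437 by edgeR). Lpcat2, encoding an acyltransferase that also makes platelet-activating factor, rose to 60.4 ± 1.46 CPM in Stag2KO, against 30.6 ± 5.65 CPM in Stag2WT libraries (0.98, SE 0.12, adjusted p = 0.00199 by edgeR). The fatty acid amide hydrolase gene Faah was higher too (log2 fold change 0.52 with adjusted p = 0.00816). Lpcat3, encoding an acyltransferase that puts arachidonate into phospholipids, averaged 87.0 ± 4.95 CPM in Stag2KO libraries and 84.4 ± 9.76 CPM in Stag2WT libraries and was not called (0.04).

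Downstream of leukotriene A4, of 14 tested genes 3 were higher, 4 lower and 7 not called. Mgst2, whose product can also make leukotriene C4, rose to 59.7 ± 7.99 CPM in Stag2KO, against 42.2 ± 3.68 CPM in Stag2WT libraries (log2 fold change 0.50, adjusted p = 0.0163 by edgeR), a call lost without Stag2WT replicate 2 (0.0561) or 3 (0.0513). The dipeptidase genes Dpep1 and Dpep2, from a family whose members cut leukotriene D4 to E4, were lower at log2 fold changes of -1.57 (adjusted p = 0.0175) and -1.41 (adjusted p = 0.0182), both at low levels. Dpep1 was no longer called without Stag2KO replicate 2 (0.0533), nor Dpep2 without Stag2KO replicate 1 (0.0592) or 2 (0.0654). Cotl1, encoding an actin-binding protein that binds the enzyme of Alox5, was not called (0.06, adjusted p = 0.73).

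Prostaglandin genes were called in both directions. Of 9 tested synthase genes 1 was higher, 3 lower and 5 not called. The cytosolic prostaglandin E synthase gene Ptges3, also a chaperone partner, was lower by a small amount (log2 fold change -0.40 with adjusted p = 0.0223), a call lost without Stag2KO replicate 2 (0.0651) or 3 (0.0696) or Stag2WT replicate 3 (0.0533). Ptges2 fell by 0.29 (adjusted p = 0.0452), a call lost in each fit without 1 library (0.0632 without Stag2WT replicate 3 to 0.126 without Stag2KO replicate 2), and it was -0.18 with the covariate. The gene listed as 2810405K02Rik, a RefSeq synonym of the prostamide synthase gene Prxl2b, fell by 1.16 (adjusted p = 0.0236), lost without Stag2KO replicate 3 (0.0684) or Stag2WT replicate 2 (0.0583), and with the covariate its log2 fold change was -0.17 (adjusted p = 0.891 by edgeR). Akr1b3, an aldose reductase gene, was not called (0.05, adjusted p = 0.573).

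Of 4 tested genes of prostaglandin export, uptake and breakdown, 1 was higher, 1 lower and 2 not called, with a median log2 fold change of 0.03. The largest fall among the tested prostaglandin genes was in the breakdown gene Hpgd. Hpgd, whose dehydrogenase inactivates prostaglandins, averaged 12.1 ± 2.59 CPM in Stag2KO libraries and 49.1 ± 6.48 CPM in Stag2WT libraries (log2 fold change -2.02, SE 0.17, adjusted p = 0.000635 by edgeR). It was called in 6 of 6 fits without 1 library, at -2.21 to -1.89. Abcc4, which encodes a prostaglandin exporter, rose by 0.25 (adjusted p = 0.0233), a call lost without Stag2KO replicate 1 (0.0747), 2 (0.0669) or 3 (0.06) or Stag2WT replicate 1 (0.0726). Ptgr2, a reductase gene acting on prostaglandin metabolites, was not called (0.06, adjusted p = 0.67).

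Of 7 tested prostanoid receptor genes, 1 was higher, 3 lower and 3 not called. The prostaglandin E receptor genes Ptger3 (log2 fold change -0.92, SE 0.18, adjusted p = 0.00972) and Ptger2 (-0.88, SE 0.17, adjusted p = 0.01) fell, at 7.88 ± 1.71 and 3.15 ± 0.54 CPM in Stag2KO and at 14.9 ± 1.65 and 5.81 ± 0.204 CPM in Stag2WT libraries. With the covariate Ptger3 was at -1.42. The prostaglandin F receptor gene Ptgfr fell by 1.47 from under 1 CPM (adjusted p = 0.0305), lost without Stag2KO replicate 1 (0.0825) or 2 (0.0874) or Stag2WT replicate 1 (0.0877) or 2 (0.0744), and was at -0.82 with the covariate. Ptger4, the most abundant uncalled receptor gene, held 25.2 ± 0.433 CPM in Stag2KO and 26.7 ± 2.51 CPM in Stag2WT libraries (-0.08, adjusted p = 0.547).

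**Figure D5:**
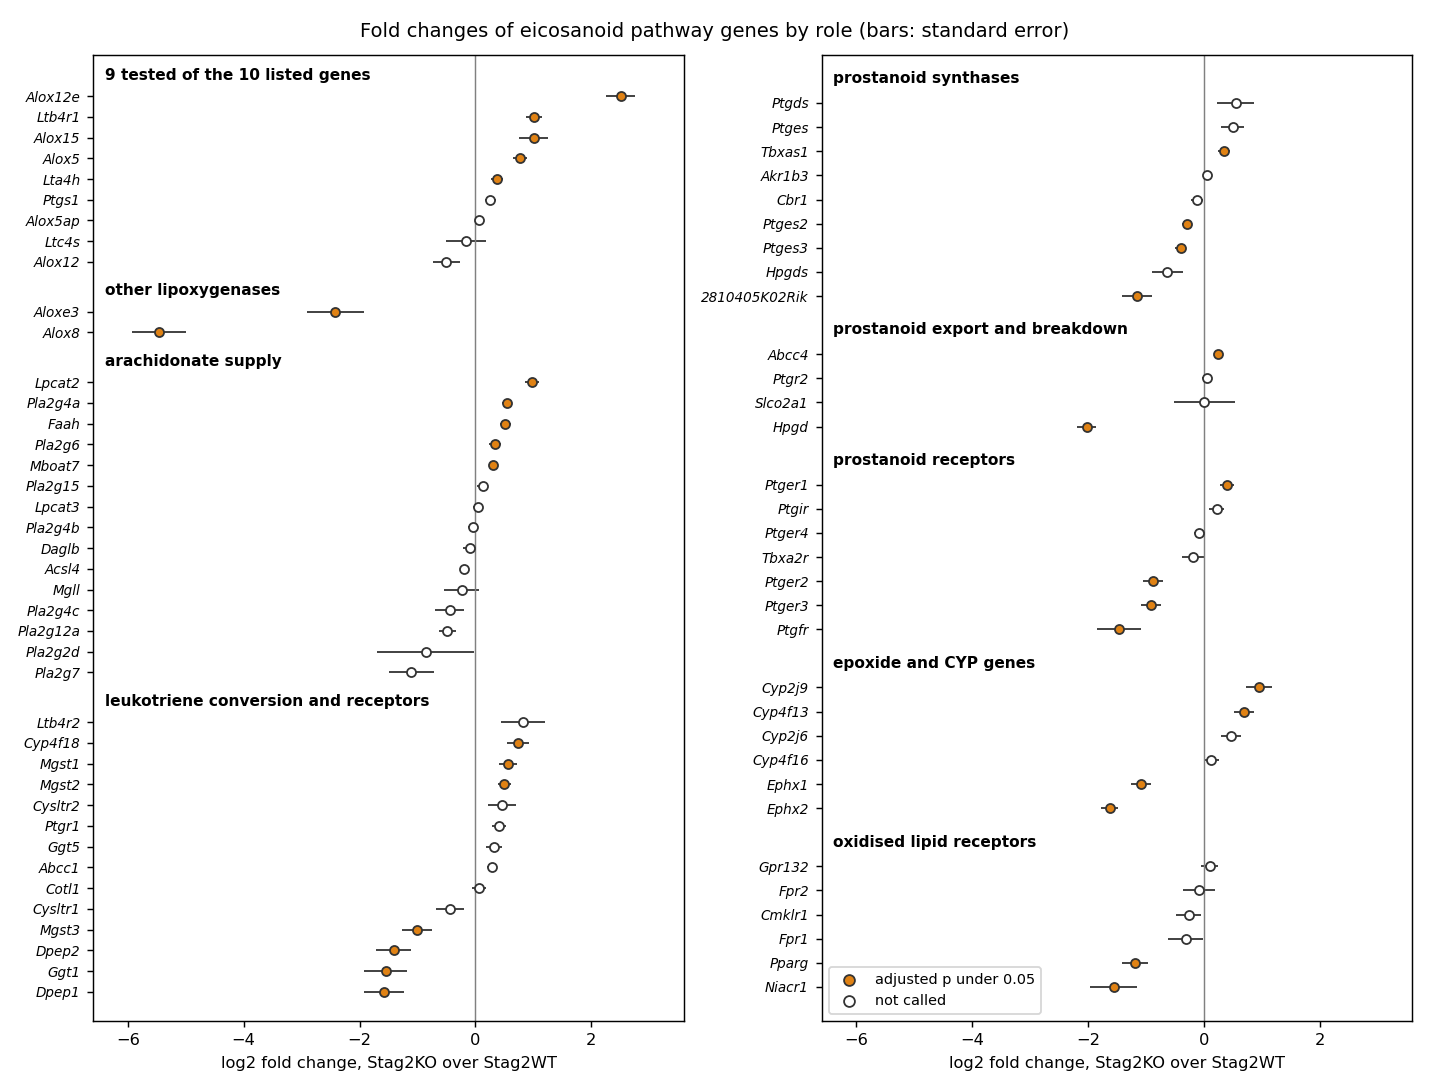
log2 fold change (Stag2KO over Stag2WT) of the 9 tested members and the 63 other tested pathway genes, grouped by role, with bars for the standard error; orange points have an adjusted p under 0.05. Alox12e at 2.50 is the highest point and Alox8 at -5.47 the lowest.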

How the data were processed

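RNA was measured in 3 Stag2KO and 3 Stag2WT libraries of lineage-depleted marrow, and the deposited file is the authors' matrix of raw counts for each gene symbol. The tools named are STAR 2.4, HTSeq 0.6.1 and DESeq2, and the build is mm9, per the submitters' processing notes. No source used here gives the annotation or the strand setting, so whether reads of antisense genes were kept apart is not known. Counter totals that name no gene were left out, among them reads in no annotated gene (8.81% to 12.8% of a library) and multiply aligned reads (23.4% to 28.6%).

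The test was edgeR's (4.0.16, in R 4.3.3) quasi-likelihood test on genotype, with TMM scaling, filterByExpr and robust dispersions, and Benjamini-Hochberg adjustment ran over 15708 genes. Replicates were numbered in accession order, and nothing says that they are from different animals, so the p-values reflect the spread among these libraries alone, which may be technical. Alternatives were median-ratio size factors, other filters, DESeq2 1.42.0, limma-voom (limma 3.58.1), a fit without robust dispersion, the covariate above and each library left out. The fit was tested on simulated data.

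The members and gene lists were chosen with earlier results of these data known. Named were all members, up to 3 called genes and the most abundant uncalled gene of each list, the 5 genes most like Alox12e and genes next to a member. Alox8's neighbour Gucy2e was picked after its values were seen.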

Additional observations from a re-analysis of the deposited data

How the results depend on the processing

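The count of genes called, 3333, was 67 when the fraction of reads outside annotated genes entered as a covariate and 1967 to 2548 without 1 library. Of the members, 5 were called, 1 with that covariate, 4 without the filter on low counts and 3 to 5 without 1 library. With the covariate the log2 fold changes of the 4 members that lost their call, and their standard errors, were larger (Alox12e 3.12, SE 0.43). Of the other pathway genes, 30 were called, 2 with the covariate and 16 to 22 without 1 library. Under the other alternatives (size factors, filters, DESeq2, limma-voom, no robust dispersion) these counts stayed within 1.5 times, and Stag2 was called lower under each alternative run. Among members and named pathway genes, these with no call changed sign without 1 library: Ltc4s ran from -0.30 to 0.15, Lpcat3 from -0.0163 to 0.14, Cotl1 from -0.0204 to 0.18, Ptgr2 from -0.0252 to 0.11 and Gpr132 from -0.0195 to 0.21. So did, outside the rule for named genes, Pla2g2d (-1.35 to 0.43), Slco2a1 (-0.33 to 0.80), Fpr2 (-0.24 to 0.15) and Daglb (-0.21 to 0.0103). No paired analysis was possible because the labels give the groups no shared replicate numbers. The covariate was higher in every Stag2KO library (11.1%, 12.8% and 11.2%) than in any Stag2WT library (8.84%, 8.81% and 10.1%). With 6 libraries, a fit that holds both can tell it apart from genotype only poorly. The cause of the lost calls was not tested. Counts of Ltc4s and Ptgs2 are too low for a moderate change to be seen.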

Other observations

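Enzymes of the epoxide branch, where cytochrome P450 products of arachidonic acid are hydrolysed, were called in opposite directions. Ephx2, the soluble epoxide hydrolase gene, fell to 2.96 ± 0.245 CPM in Stag2KO, against 9.18 ± 1.04 CPM in Stag2WT libraries (SD, n = 3 each; log2 fold change -1.63, adjusted p = 0.000755 by edgeR). Ephx1, the microsomal hydrolase gene, fell by 1.09 (adjusted p = 0.00477), and was at -0.63 with the share of reads outside genes as a covariate. The cytochrome gene Cyp2j9 rose by 0.96 (adjusted p = 0.0208), a call lost without Stag2KO replicate 2 (adjusted p = 0.0663) or 3 (0.0551) or Stag2WT replicate 1 (0.0588) or 2 (0.0698), and its value was 0.28 with the covariate. Cyp4f16 was not called (0.13, adjusted p = 0.486). Of the 6 genes of this group 2 were higher, 2 lower and 2 not called.

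Of 6 receptor genes for oxidised lipids and related fatty acids, 0 were higher, 2 lower and 4 not called. Pparg, a nuclear receptor gene, averaged 7.53 ± 1.73 CPM in Stag2KO libraries and 17.1 ± 3.86 CPM in Stag2WT libraries (log2 fold change -1.19, adjusted p = 0.00989 by edgeR). With the covariate its log2 fold change was -0.24 (adjusted p = 0.751 by edgeR). The niacin receptor gene listed as Niacr1 fell by 1.56 from a low level (adjusted p = 0.0317), a call lost without Stag2KO replicate 1 (adjusted p = 0.0805) or 2 (0.0909) or Stag2WT replicate 1 (0.0765) or 2 (0.0938), and its value was -0.41 with the covariate. None of the called genes of these 2 groups that are named here was called with the covariate. Gpr132, a lipid-sensing receptor gene, was not called (0.10, adjusted p = 0.643).

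Next to Alox8 in the RefSeq gene order, Gucy2e held 0, 0 and 2 reads in Stag2KO libraries, against 103, 80 and 96 reads in Stag2WT libraries. This gene encodes a guanylate cyclase best known from the retina, and it was picked after its values were seen. Cntrob, the next gene, was not called (log2 fold change -0.11, adjusted p = 0.295 by edgeR).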
